A study of Mus musculus with 8 samples.

Results

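Krt7, Krt8, Krt18, Krt19 and Vim, 4 keratin genes of simple epithelia and the vimentin gene, were followed in mouse embryos through every array probe set whose platform annotation names exactly 1 of these genes. These were 5 of the 18193 genes that had a probe set of their own, and 9 of the 45101 probe sets of the table: 3 for Krt8, 3 for Vim and 1 each for Krt7, Krt18 and Krt19. The blastocysts were embryos of day 4.5 (120 h after human chorionic gonadotropin, hCG, which times ovulation), and the 8-cell embryos were of day 2.5 (66 h after hCG). Each stage had 4 arrays of RNA from wild-type whole embryos of the B6D2F1 strain, collected as 1-cell zygotes and grown in KSOM medium in 5% O2. The labels do not say whether separate embryo collections stand behind the arrays of a stage, so the spread behind each p-value may be technical. The arrays read whole embryos, so a changed share of a cell type and a changed RNA level per cell cannot be told apart.

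Intermediate filaments are the rope-like part of the cytoskeleton. Keratin filaments are built only from pairs of a type I and a type II chain, and in simple epithelia the usual pair is keratin 18 (type I) with keratin 8 (type II). Keratin 19 is a further type I chain and keratin 7 a further type II chain of simple epithelia. In the mouse embryo the keratin 8 and 18 pair is a classic product of the trophectoderm, the outer epithelium of the blastocyst. Vimentin, a type III protein, forms filaments on its own, is best known from mesenchymal cells, and in the early mouse embryo is known from the parietal endoderm, which migrates along the inner face of the trophoblast.

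All 5 genes were higher in blastocysts (mean ± SD is over n = 4 arrays throughout). The fold on the log2(signal + 16) scale was 26.8 for Krt7, 22.8 for Krt18, 18.5 for Krt8, 13.1 for Krt19 and 3.01 for Vim, each from the brightest probe set of the gene. The count of 5 called of 5 has to be read against all 13274 genes tested, of which 71.7% were called in either direction, 37.5% were called higher in blastocysts and 34.2% lower (limma, adjusted p under 0.05). The median of the 5 differences was 4.21 log2 units, and that of all tested genes was 0.02. The 13274 genes were ranked by the signed difference, from the largest rise to the largest fall. Krt7 stood in place 135, Krt18 in place 165, Krt8 in place 214, Krt19 in place 316 and Vim in place 2139. The size for Krt19 depends on the 16 added. The stages did not overlap for any of the 5 genes or of their 9 probe sets. Among all tested genes, each read by its brightest probe set, 66.8% did not overlap, and 35.3% were higher without overlap. The share without overlap over all probe sets was not computed.

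**Figure D1:**
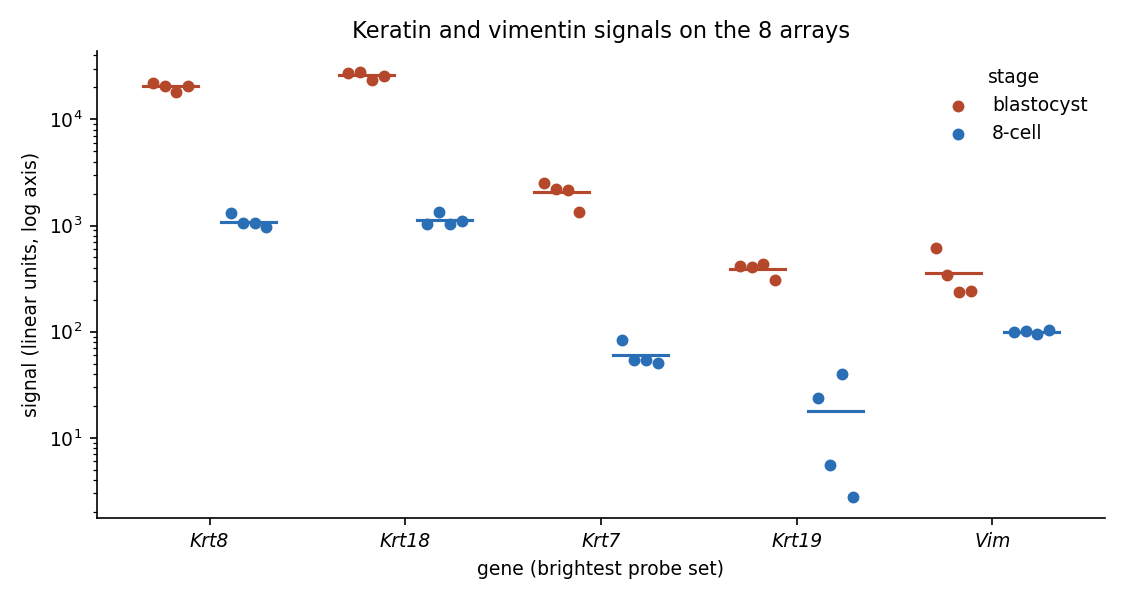
Signals of the 5 genes on the 8 arrays (brightest probe set, logarithmic vertical axis), with blastocysts in red left of 8-cell embryos in blue; points are arrays and lines the means of 4. The blastocyst points of every gene lie above all 8-cell points, and the 8-cell points of Krt19 spread from 2.8 to 39.8.

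Signals had been scaled per array to a trimmed mean of 500 by the authors, so each value is relative to the rest of its array. Arrays correlated at 0.982 to 0.988 within blastocysts, at 0.977 to 0.981 within 8-cell embryos and at 0.752 to 0.780 between stages, over the tested genes. The 3' minus 5' difference of control probe sets, which grows as amplified RNA gets shorter, was 0.82 ± 0.11 log2 units in blastocysts and 2.42 ± 0.19 in 8-cell embryos for Actb, and 1.36 ± 0.11 and 2.32 ± 0.26 for Gapdh (exact permutation p = 0.0286, two-sided, in both cases, the smallest that 4 against 4 allow). How far this bears on the 9 probe sets was not tested. Under scaling by hybridisation spike-ins the median of all genes moved to 0.26 log2 units, and the differences became 4.98 for Krt7, 4.78 for Krt18, 4.48 for Krt8, 3.95 for Krt19 and 1.83 for Vim.

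Krt8, the type II partner of the main pair, is read by 3 probe sets. Probe set 1420647_a_at, whose suffix marks a match to several transcripts of a gene, gave 21956, 20788, 18209 and 20582 on the blastocyst arrays, against 1301, 1053, 1046 and 961 on the 8-cell arrays. The difference was 4.21 log2 units (SE 0.13, adjusted p = 1.78e-08). Probe sets 1423691_x_at and 1435989_x_at, whose suffix marks probes that may bind other sequences too, averaged 20664 ± 1565 and 19590 ± 1224 in blastocysts, against 785 ± 48.1 and 871 ± 105 in 8-cell embryos. Fitted among all probe sets, of which 33.6% were higher, these gave 4.69 (SE 0.12) and 4.47 (SE 0.13), so the 3 readings of the gene spanned 4.21 to 4.69. The reference gene table lists a pseudogene named Krt8-ps, and whether its transcripts add to any of the 3 signals was not tested.

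Krt18, the type I partner, is read by probe set 1448169_at alone. It gave 27156, 27924, 23242 and 25562 on the blastocyst arrays, against 1024, 1347, 1042 and 1104 on the 8-cell arrays. The arrays of each stage stayed close together: the highest exceeded the lowest by 1.20 times in blastocysts and by 1.32 times in 8-cell embryos. The difference was 4.51 log2 units (SE 0.13, adjusted p = 1.38e-08). Both partners also exceeded the 40th percentile of all signals on every 8-cell array. In blastocysts Krt18 took places 17, 4, 5 and 6 among the 45101 signals of an array and the 3 Krt8 probe sets took places 36 to 120, near the top of the scale. Whether a ceiling of the scanner touched these values was not tested.

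Krt7, a type II keratin, gave 2506, 2212, 2145 and 1339 on the blastocyst arrays, against 83.1, 53.7, 54.1 and 50.3 on the 8-cell arrays (probe set 1423952_a_at). Its lowest blastocyst array was the one with replicate number 4. The difference was 4.74 log2 units (SE 0.21, adjusted p = 9.49e-08), and with 1 or 64 added in place of 16 it was 5.06 or 4.06. Krt19, the short type I keratin, gave 420, 404, 435 and 307 on the blastocyst arrays, against 23.7, 5.5, 39.8 and 2.8 on the 8-cell arrays (probe set 1417156_at). Replicate 4 was again the lowest blastocyst array, and only 1 of the 4 8-cell arrays was above the array's 40th percentile. Krt19 therefore passed the filter on dim genes through its blastocyst arrays, which favours a difference in this direction. Its difference of 3.72 (SE 0.33, adjusted p = 5.01e-06) became 4.95 with 1 added and 2.49 with 64 added, so its fold depends on the number added.

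Vim gave 618, 345, 235 and 239 on the blastocyst arrays, against 100, 101, 94.8 and 104 on the 8-cell arrays (probe set 1450641_at). The 8-cell arrays lay within 1.09 times of each other, and the blastocyst arrays spanned 2.62 times, with replicate 1 the highest. The difference was 1.59 log2 units (SE 0.27, adjusted p = 0.000473). The other probe sets ordered the arrays alike at the top: 1438118_x_at gave 308 on blastocyst replicate 1 and 129 to 156 on the other 3, against 37.9 to 59.4 in 8-cell embryos. Probe set 1456292_a_at gave 174, 149, 76.5 and 61.8 in blastocysts, against 16.7 to 32.3 in 8-cell embryos, with 1 of 4 8-cell arrays above the 40th percentile. Their differences were 1.63 (SE 0.25) and 1.59 (SE 0.29), close to that of 1450641_at with 16 added. With 1 or 64 added 1450641_at gave 1.72 or 1.28 and 1456292_a_at gave 2.06 or 0.96. Without blastocyst replicate 1 the main difference was 1.30.

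**Figure D2:**
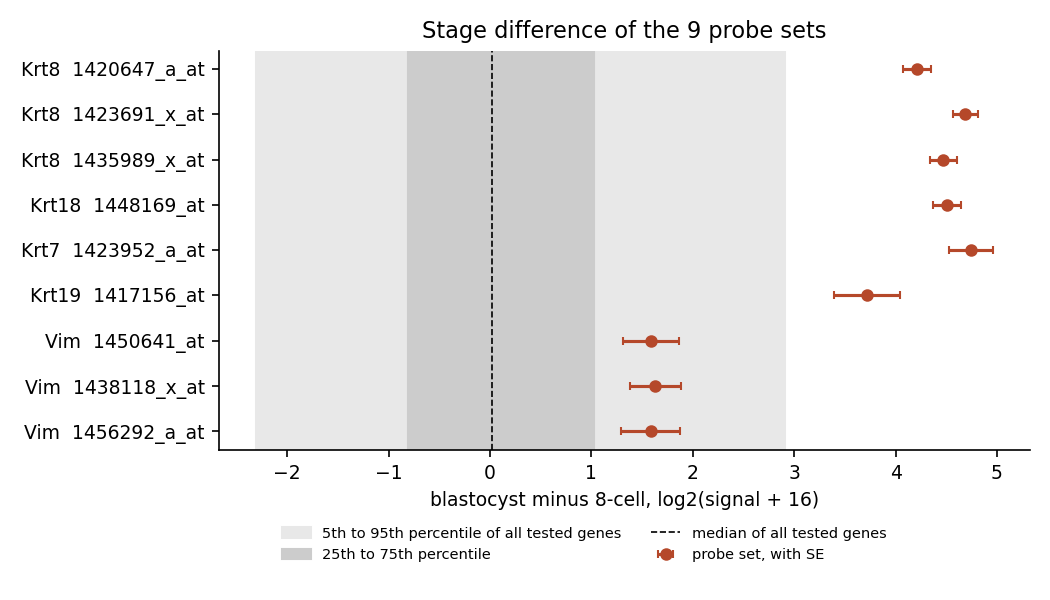
Difference between blastocysts and 8-cell embryos for the 9 probe sets in log2(signal + 16) units, with SE, over bands that hold the middle 90% and the middle 50% of all tested genes. The keratin probe sets lie above the 95th percentile of all tested genes (2.91), and the 3 Vim probe sets lie between the 75th (1.02) and the 95th.

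Whether the 5 genes differed in the size of their rise was asked with the log2 ratio of 2 genes within each array, for 10 pairs. The ratio of each keratin to Vim was higher on every blastocyst array than on any 8-cell array, by 3.15 log2 units for Krt7 (SE 0.27), 2.92 for Krt18 (SE 0.29), 2.62 for Krt8 (SE 0.29) and 2.13 for Krt19 (SE 0.48). Each of these 4 had p = 0.0286 by the exact two-sided permutation test, the smallest that 4 against 4 arrays allow, and p = 0.0571 after adjustment over the 10 pairs, which misses 0.05. The ratio of Krt7 to Krt19 was higher by 1.03 (SE 0.35), with the same exact permutation p-values and without overlap. With only these 5 of the 10 pairs at the smallest p, none of them could pass after adjustment. The pairs with Krt19 depend on the number added, since 3 of its 8-cell arrays are under the 40th percentile: with 1 or 64 added Krt7 exceeded Krt19 by 0.104 or 1.57, and Krt19 exceeded Vim by 3.23 or 1.20. The other 5 pairs overlapped. Between the filament partners Krt18 and Krt8 the difference of the rises was 0.30 log2 units (SE 0.15, exact permutation p = 0.0857, adjusted p = 0.143), and its sign turned to -0.18 with Krt8 read by probe set 1423691_x_at, so no order of the partners can be given. Within blastocysts the ratio of Krt18 to Krt8 varied by an SD of 0.05 log2 units over the 4 arrays, the least of the 10 pairs, against 0.30 in 8-cell embryos. This contrast of the stages is for Krt8 probe set 1420647_a_at and depends on that choice. Among 8-cell arrays 1420647_a_at was highest on replicate 1 (1301). Probe set 1435989_x_at was highest on replicate 2 (1027), as was Krt18 (1347).

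Krt8 and Krt18 are next to each other on chromosome 15, at one end of the type II keratin cluster, and Krt7 lies near its other end. Because these 3 genes share a cluster and showed the largest rises of the 5, the 250 bases before their annotated starts are shown, from RefSeq on build GRCm38.p6. Capitals mark matches, on either strand, to GCCNNNGGC (TFAP2), NGATAA (GATA) or GGGCGG (SP).
Krt8 (chr15:102004343-102004592, minus strand): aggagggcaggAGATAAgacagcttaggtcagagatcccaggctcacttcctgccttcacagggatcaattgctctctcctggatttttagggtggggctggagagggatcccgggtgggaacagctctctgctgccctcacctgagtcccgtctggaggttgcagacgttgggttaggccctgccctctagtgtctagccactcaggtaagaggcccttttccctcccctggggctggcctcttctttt
Krt18 (chr15:102027966-102028215, plus strand): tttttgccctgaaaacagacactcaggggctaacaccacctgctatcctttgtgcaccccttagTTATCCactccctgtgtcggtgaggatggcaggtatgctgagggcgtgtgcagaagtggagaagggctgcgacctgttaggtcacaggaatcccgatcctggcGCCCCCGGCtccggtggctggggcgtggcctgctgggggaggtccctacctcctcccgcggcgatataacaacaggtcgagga
Krt7 (chr15:101412153-101412402, plus strand): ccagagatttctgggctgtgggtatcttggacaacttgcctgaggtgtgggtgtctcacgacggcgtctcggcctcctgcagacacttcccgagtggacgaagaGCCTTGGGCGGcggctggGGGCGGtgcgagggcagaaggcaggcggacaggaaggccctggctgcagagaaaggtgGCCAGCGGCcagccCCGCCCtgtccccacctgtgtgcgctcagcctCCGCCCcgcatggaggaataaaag

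The TFAP2 letters, a pattern bound by AP-2 factors such as that of the series title, stood once in the Krt18 window (83 to 75 bases before the start) and at 2 places in the Krt7 window (146 to 138 and 70 to 62 bases before), and the first of these overlaps an SP match. No TFAP2 match stood in the Krt8 window, and Vim had one, 20 to 12 bases before its start. Of all 32851 windows of this length 13.7% hold the pattern. The GATA letters stood once in Krt8 (239 to 234 bases before) and once in Krt18 (186 to 181 bases before) and in 22.5% of all windows. The SP letters stood at 4 places in Krt7 and in 32.7% of all windows. Of the other patterns searched, CCGGAA (ETS) stood once in Vim and in 12.03% of windows. The core promoter box with the letters TATAAA stood once in Vim and in 12.4% of windows. TGANTCA (AP-1), held by 6.75% of windows, stood in none of the 4 genes searched (Krt7, Krt8, Krt18 and Vim). GGAATG (TEAD), held by 12.6%, also stood in none. Krt19 had no window in the reference used and was not searched. A match is a run of letters and not a shown site.

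Most other keratins of the cluster were dim at both stages. Of its 26 keratin genes 24 were measured. Among the 21 measured besides these 3, mean signals reached at most 145 in blastocysts and 123 in 8-cell embryos, and 9 passed the filter on dim genes, 1 higher and 3 lower. The shares over all tested genes were 37.5% higher and 34.2% lower. The higher gene was Krt88, close to Krt7, at 145 ± 33.6 in blastocysts and 10.1 ± 4.91 in 8-cell embryos (2.62 log2 units, SE 0.20, adjusted p = 1.70e-06); it was named after its values were seen, and no 8-cell array was above the 40th percentile. The 3 lower genes were Krt84 (-1.02, SE 0.21), Krt79 (-0.79, SE 0.17) and Krt5 (-0.69, SE 0.15), of which Krt5, the type II keratin of basal cells in stratified epithelia, lost its call with spike-in scaling. The gene that follows Krt18, Eif4b, an initiation factor of translation, was lower in blastocysts at 2761 ± 71.5, against 4141 ± 450 in 8-cell embryos (-0.58, SE 0.12), and Krt78, on the other side of Krt8, was at 48.4 ± 14.2 and 37.1 ± 27.4 (adjusted p = 0.348).

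**Figure D3:**
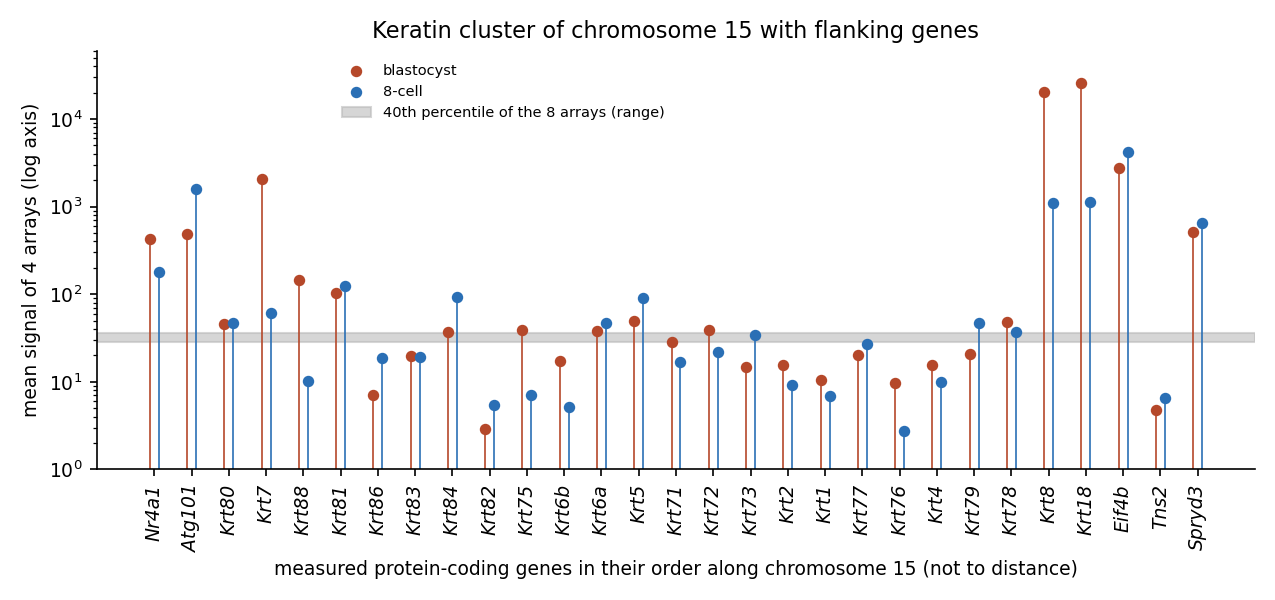
Mean signals of the measured protein-coding genes of the type II keratin cluster and 3 genes on either side where measured, in chromosomal order (logarithmic axis, blastocysts in red left of 8-cell embryos in blue, the grey band being the range of the 40th percentile of the arrays). Krt7, Krt8, Krt18 and Krt88 are the keratins of the cluster called higher in blastocysts, and 5 of the others had no array above that percentile.

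Among type I keratins other than Krt18 and Krt19, 23 were measured and 4 passed the filter. Krt10, a keratin of differentiating epidermis, rose to 442 ± 68.9 in blastocysts, against 80 ± 17.8 in 8-cell embryos (2.26, SE 0.17). Krt28, known from the inner root sheath of the hair follicle, fell to 20.5 ± 6.10 in blastocysts, against 473 ± 31.3 in 8-cell embryos (-3.76, SE 0.14). No blastocyst array exceeded the 40th percentile for Krt28, so it passed the filter through 8-cell embryos and the size depends on the 16 added. Krt32 and Krt42 did not pass, but Krt42 was called lower with quantile normalization (-0.57, adjusted p = 0.0071) and over averaged probe sets (-0.65, adjusted p = 0.00462). Among listed type II keratins, which leave out Krt88, 8 were tested and by limma 0 were higher (1 at an unadjusted p under 0.05, Krt72), 3 were lower and 5 did not pass. Krt72 was called higher with quantile, median or spike-in scaling and when probe sets were averaged. Over all tested genes 37.5% were higher and 34.2% lower.

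Of 14 intermediate filament genes outside the keratins and Vim, 12 were tested, 3 were higher and 3 lower, with a median of -0.14. Beside them, 37.5% of all tested genes were higher and 34.2% lower. Nefl, a neurofilament subunit, was at 944 ± 367 in blastocysts and 99.1 ± 62.0 in 8-cell embryos (3.30, SE 0.58, or 2.25 when its probe sets were averaged). Of the nuclear lamins, which line the inner nuclear membrane, Lmna rose to 5263 ± 316 in blastocysts, against 1604 ± 324 in 8-cell embryos (1.72, SE 0.15), and Lmnb1 by 1.01 (SE 0.14), whereas Lmnb2 differed by -0.19 (adjusted p = 0.223). The direction of Lmnb2 is not settled, at -0.47 with quantile normalization (adjusted p = 0.00671) and 0.48 over averaged probe sets (adjusted p = 0.0188). The lower genes were Synm, for synemin, a partner of type III filaments (-3.09, SE 0.21, or -1.91 when its probe sets were averaged, with no blastocyst array above the 40th percentile, so that the size depends on the 16 added), Ina, for internexin (-2.51, SE 0.15), and Nes, for nestin (-1.20, SE 0.20), the last named after its value was seen. Des, for the muscle protein desmin, did not pass the filter.

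Keratin filaments are tied to desmosomes and to other parts of the cytoskeleton by linker proteins. Of 17 tested linkers and partners 6 were higher, 5 lower and 6 missed the threshold, with a median of 0.12. These counts are near the shares over all tested genes, 37.5% higher and 34.2% lower. Pkp2, a desmosomal plaque protein, rose to 5465 ± 436 in blastocysts, against 253 ± 108 in 8-cell embryos (4.43, SE 0.25, or 3.08 when its probe sets were averaged). Dsp, for desmoplakin, which anchors keratin to the desmosome, rose to 6143 ± 542, against 923 ± 288 (2.75, SE 0.20, or 1.90 when its probe sets were averaged). Plec, for plectin, which links filaments to other structures, rose to 3179 ± 424, against 735 ± 160 (2.10, SE 0.17). Eppk1, for epiplakin, a keratin binder, gave 62.4 ± 5.08 in blastocysts and 15.8 ± 5.39 in 8-cell embryos (1.31, SE 0.14), with no 8-cell array above the 40th percentile. The lower genes included 2 picked out with their values known, Dnajb6, a chaperone that binds keratin 18 (-0.77, SE 0.12), and Sfn, a 14-3-3 protein that binds keratins (-0.64, SE 0.14; adjusted p = 0.156 with spike-in scaling).

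Of 19 tested transcription factors known to act on keratin or simple epithelial genes, 14 rose, 3 fell and 2 did not pass. Among all tested genes 37.5% were higher and 34.2% lower. The list of these factors shares members with the trophectoderm list, such as Elf5, Gata3, Cdx2, Tfap2a and Tfap2c. Elf5 was at 6764 ± 697 in blastocysts and 4.73 ± 4.00 in 8-cell embryos, where no array exceeded the 40th percentile, so its difference of 8.37 (SE 0.15, or 6.32 over averaged probe sets) depends on the 16 added. Gata3 rose by 5.30 (SE 0.17), and Elf3, an epithelial ETS factor, rose to 6170 ± 798 in blastocysts, against 210 ± 25.5 in 8-cell embryos (4.77, SE 0.14). Ets2, an ETS factor of mouse trophoblast, was at 948 ± 62.7 in blastocysts and 46.2 ± 19.6 in 8-cell embryos (4.01, SE 0.22, or 1.66 when its probe sets were averaged). Jun, a subunit of the AP-1 factor, did not pass at 123 ± 22.3 and 91.2 ± 27.0 (0.39, SE 0.20, adjusted p = 0.110, and 0.83 with an adjusted p = 0.00681 when its probe sets were averaged). Tfap2a rose by 4.67 (SE 0.22) and Tfap2c fell by 1.28 (SE 0.14), so the listed AP-2 genes went in opposite directions. Other genes of the AP-2 family were not in the list.

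The lineages of the blastocyst were checked by their markers. The counts below stand beside 37.5% higher and 34.2% lower among all tested genes. Of 16 tested trophectoderm genes, 12 were higher and 4 lower, with a median of 3.73, and all were above the 40th percentile on at least 3 blastocyst arrays. Cdx2 rose by 3.78 (SE 0.12) and Eomes by 5.17 (SE 0.18), against a fall of 2.03 (SE 0.13) for Tead4, and Id2 and Gata2 rose by 6.45 (SE 0.18) and 5.84 (SE 0.13). Besides Tead4 the lower genes were Tfap2c, Hand1 (-5.21, SE 0.45, or -3.22 over averaged probe sets) and Esx1 (-1.23, SE 0.24). Hand1 and Esx1 were named after their values were seen. Of 19 tested genes of primitive and parietal endoderm 15 were higher and 2 lower, with a median of 3.22. Gata4 fell to 932 ± 234 in blastocysts, against 1832 ± 584 in 8-cell embryos (-0.95, SE 0.24). Gata6 fell to 4166 ± 369, against 6156 ± 868 (-0.55, SE 0.14; adjusted p = 0.304 with spike-in scaling). Both were picked for mention with their values known. Among the higher genes the differences were 7.24 for Sparc (SE 0.52, or 4.54 over averaged probe sets), 7.002 for Sox17 (SE 0.15) and 6.19 for Lama1 (SE 0.19). In 8-cell embryos Sparc exceeded the 40th percentile on 1 array and Sox17 and Lama1 on 0, so these 3 passed the filter through blastocysts and the sizes depend on the 16 added. Snai1, a repressor linked to parietal endoderm, was at 79.8 ± 19.9 in blastocysts and 104 ± 19.5 in 8-cell embryos (adjusted p = 0.137), and Thbd, a parietal endoderm marker named after its values were seen, at 65.5 ± 10.98 and 61.9 ± 4.42 (adjusted p = 0.706). Of 12 tested epiblast genes 7 were higher and 3 lower, the higher ones led by Sox2 (4.01, SE 0.26), Tfcp2l1 (3.34, SE 0.32, or 1.19 over averaged probe sets) and Gdf3 (2.82, SE 0.24). The lower ones, named after their values were seen, were Klf2 (-2.32, SE 0.16), Esrrb (-1.34, SE 0.16, or -0.80 over averaged probe sets) and Pou5f1 (-0.90, SE 0.12). Cdh1, for E-cadherin, rose by 0.47 (SE 0.11), and Cdh2, for N-cadherin, often seen together with vimentin in mesenchyme, fell to 45.9 ± 20.2 in blastocysts, against 197 ± 79.0 in 8-cell embryos (-1.74, SE 0.36).

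Markers of cells that express vimentin elsewhere were read beside it. Their counts stand beside 37.5% higher and 34.2% lower among all tested genes. Of 11 tested genes of mesenchyme and fibroblasts 5 were higher and 2 lower, and the summed signal of the 18 measured ones was 5360 to 6536 in blastocysts and 1183 to 1254 in 8-cell embryos. Fn1, for fibronectin, which endoderm also makes, held most of that sum in blastocysts (4852 ± 564) but not in 8-cell embryos (364 ± 49.6). Its difference was 3.68 (SE 0.14, or 2.40 when its probe sets were averaged). Without it the sums were 795 to 1170 in blastocysts and 828 to 891 in 8-cell embryos. Thy1 gave 111 ± 11.5 in blastocysts, against 11.9 ± 7.52 in 8-cell embryos, where no array was above the 40th percentile. The summed signal of 12 measured cumulus and granulosa genes was 625 to 753 in blastocysts and 6724 to 10503 in 8-cell embryos, most of the 8-cell sum being from Amhr2 (-4.76, SE 0.17), and without it 361 to 461 and 366 to 622. Of 6 tested genes of that list Cyp11a1 was higher (0.93, SE 0.35; adjusted p = 0.194 when its probe sets were averaged) and Amhr2 and Foxl2 (-0.47, SE 0.17) lower. Foxl2 lost its call with median scaling (adjusted p = 0.0584), spike-in scaling (adjusted p = 0.404) and averaged probe sets (adjusted p = 0.0551). Of 5 tested genes of blood and macrophages 2 were higher and 0 lower (0 also at an unadjusted p under 0.05 by limma), Laptm5 (2.21, SE 0.21, or 1.21 over averaged probe sets) and Lyz2 (0.74, SE 0.21). Lyz2 had 1 8-cell array above the 40th percentile. Csf1r was called lower with quantile normalization (-0.50, limma adjusted p = 0.0314) and Cd68 higher with spike-in scaling (0.73, limma adjusted p = 0.0368). Of the measured genes 2 of 18, 3 of 12 and 1 of 10 in these lists were above the 40th percentile on no array. Their part in the rise of Vim was not tested.

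**Figure D4:**
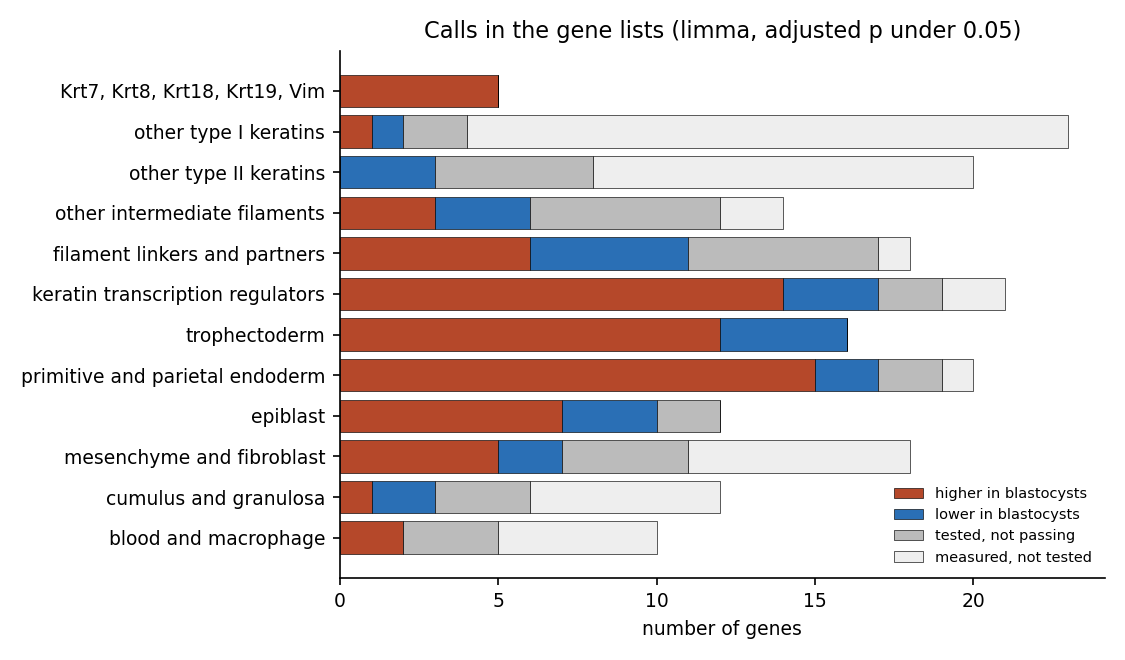
Number of genes higher in blastocysts, lower in blastocysts, tested without passing, and measured but under the filter, for the 5 genes and for each list of related genes and cell markers. Called higher are all 5 named genes, 1 of 4 tested type I and 0 of 8 tested type II keratins of the lists (which leave out Krt88, and where Krt72 is called under some alternatives), beside 37.5% of all tested genes.

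The coefficient of variation among blastocyst arrays was 49.97% for Vim, 24.4% for Krt7, 14.8% for Krt19, 7.96% for Krt18 and 7.71% for Krt8. Blastocyst replicate 1, where all 3 Vim probe sets were highest, was also the highest blastocyst array for 13 of the 19 tested endoderm genes, against 23.1% of all tested genes. Sparc gave 8396 there and 4193 to 5459 on the other blastocyst arrays, Lama1 gave 4331 and 2558 to 2672, and Sox7, named after its values were seen, 1004 and 373 to 581. Sox17 went the other way, with its lowest blastocyst signal of 2890 on replicate 1 and 3478 to 3583 elsewhere. Replicate 4, where Krt7 and Krt19 were lowest, was the lowest blastocyst array for 10 of the 16 trophectoderm genes, among them Eomes (5189, against 6919 to 7469) and Gata3 (7531, against 9332 to 10152), and for 24.5% of all tested genes. It was also the lowest for 7 of the 12 epiblast genes and 7 of the 19 endoderm genes. Krt8 and Krt18 were lowest on replicate 3 instead. These are descriptions of 4 arrays, the counts were made after the values were seen, and what differs between the arrays was not tested.

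**Figure D5:**
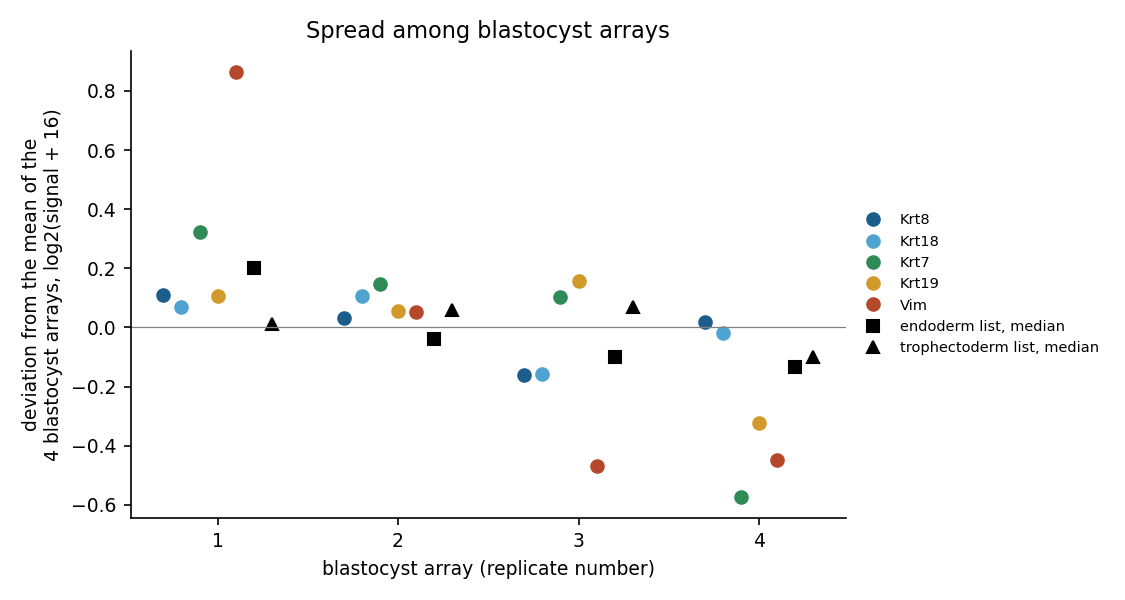
Deviation of each blastocyst array from the mean of the 4 blastocyst arrays in log2(signal + 16) units, for the 5 genes (coloured circles) and as the median over the tested endoderm (squares) and trophectoderm (triangles) genes. Vim stands 0.86 above its mean on replicate 1, where the endoderm median stands at 0.20, and Krt7 stands at -0.57 on replicate 4.

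Genes with the most similar pattern were found by the root mean square distance between 8 array values, each gene centred on its own mean. Over these 8 arrays the stage difference makes up most of the pattern. Krt8 and Krt18 were 0.24 log2 units apart, the closest pair of the 5, and Vim was 1.22 to 1.61 from the keratins. Nearest to Krt18 were Ptgr1, a prostaglandin reductase (0.12), Epcam, an epithelial adhesion molecule (0.13), and Tbc1d7 (0.15). Nearest to Krt8 were Tpm1, for the actin-binding tropomyosin (0.15), Cdc123 (0.16) and Rab25, an epithelial GTPase of vesicle traffic (0.16). Krt7 was followed by Hs3st3b1, a heparan sulfate sulfotransferase (0.18), Elf3 (0.19) and Akr1e1 (0.23), Krt19 by Exoc4, an exocyst subunit (0.22), Il17rc (0.26) and Nek7 (0.29), and Vim by Cemip (0.23), Nenf (0.25) and Ahnak2 (0.27). Epcam gave 10384 ± 809 in blastocysts and 418 ± 33.3 in 8-cell embryos (4.58, SE 0.12). In 8-cell embryos Tbc1d7 (3.68 ± 1.69), Rab25 (9.6 ± 1.16), Akr1e1 (10.8 ± 1.65) and Ahnak2 (7.73 ± 2.61) were under the 40th percentile of the arrays (28.3 to 35.7). Il17rc (24.7 ± 20.8) and Cemip (23.8 ± 8.14) also averaged less than that range. The distances of these genes, like those of Krt19, depend on the 16 added.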

How the data were processed

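The deposited table holds 1-colour signal intensities on a linear scale, and the values show that the authors had scaled each array to a trimmed mean of 500 (2% removed at each end). Per the labels' protocols RNA was amplified with a small-sample labelling assay. The program behind the signals is not given in the sources used, and no detection calls were used. Values became log2(signal + 16). Control probe sets (64) were left out, 34945 others had 1 gene symbol in the platform annotation, and 932 had several and named no gene. Each gene was read by its probe set with the highest mean, and genes or probe sets were tested if 4 or more arrays exceeded their 40th percentile. Stages were compared as blastocyst minus 8-cell by limma (no covariates) and Benjamini-Hochberg adjustment over all 13274 genes, or over all 28227 probe sets. Lists were counted and not tested. Named are all probe sets of the 5 genes, the 3 genes nearest in pattern to each (apart from provisional Rik, Gm and LOC symbols), the 3 called genes with the largest difference in each list and 20 fixed genes. The genes and lists were chosen with earlier results of these data known. In simulated data with 13274 genes, of which 200 were changed, the method recovered 92.5% of changes of 2 log2 units. It recovered 62.4% of changes of 1 and 11.5% of changes of 0.5, and 5.26% of calls were false. In the arrays 71.7% of genes were called, far more than were changed in the simulation, so these shares cannot be carried over to the arrays. Alternatives are given in the closing section. R 4.3.3, limma 3.58.1, Python 3.11.15 and scipy 1.17.1 were used. The number of arrays limits the precision.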

Additional observations from a re-analysis of the deposited data

Results flagged for a closer look

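In 3 of the 18 groups of 4 arrays (9 probe sets at 2 stages) the highest array stood apart by more than Dixon's 95% limit of 0.829 for the gap over the range. Chance gives about 1 in 20. The Vim probe set 1438118_x_at gave 308 on blastocyst replicate 1 and 129 to 156 on the other blastocyst arrays. Krt7 gave 83.1 on 8-cell replicate 1 and 50.3 to 54.1 on the other 8-cell arrays. The Krt8 probe set 1435989_x_at gave 1027 on 8-cell replicate 2 and 805 to 839 on the others.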

How the results depend on the processing

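All 93 recomputed differences of the 5 genes and all 152 of their probe sets kept their direction and stayed past 0.05. The alternatives were quantile, median and hybridisation spike-in scaling, no filter or one at the 60th percentile, other probe set rules, an intensity trend, 1 or 64 added, the replicate block and leaving out each array. Krt7 and Krt8 gave no value without probe sets ending in _x_at, _s_at or _a_at, and one Vim probe set (1456292_a_at) none at the 60th percentile. Leaving out each array gave 4.63 to 4.93 for Krt7, 4.15 to 4.30 for Krt8, 4.47 to 4.60 for Krt18, 3.48 to 4.00 for Krt19 and 1.30 to 1.75 for Vim. Same-numbered arrays of the stages did not deviate together (correlation -0.035 to -0.024). Whether they share a collection or a day of processing cannot be told from this. With the replicate block 4862 genes were higher and 4412 lower, against 4978 and 4539 without, and Vim gave 1.59 (adjusted p = 0.00128). Spike-in scaling gave 5403 and 3244, so 62.5% of calls were higher, against 52.3%.

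Of 121 recomputed differences between members 5 turned round. As first computed, none of the 10 pairs had an adjusted p under 0.05 by the exact permutation test. With 64 added Krt7 minus Krt18 became -0.39 and Krt7 minus Krt8 -0.091. With 1 added Krt18 minus Krt19 became -0.42 and Krt8 minus Krt19 -0.72. With Krt8 read by 1423691_x_at, an alternative added after the data were seen, Krt18 minus Krt8 became -0.18. Another 11 newly passed 0.05, 7 of them with 64 added. A pair at the smallest exact p passes or misses by how many pairs are compared and how many of them reach that p. A new pass therefore need not mean a larger difference for that pair. For single lists 8 of 44 counts moved by over 1.5 times.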

Other observations

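The neighbours of the other 2 genes were read in the same way. Krt19 lies in the type I keratin cluster of chromosome 11, and of the 5 protein-coding genes on either side 9 were measured. Of these Krt32 and Krt42 passed the filter, and neither was called (adjusted p = 0.721 and 0.109), though Krt42 was called lower with quantile normalization (adjusted p = 0.0071) and over averaged probe sets (adjusted p = 0.00462). Krt15, next to Krt19, was at 2.05 ± 0.39 in blastocysts and 2.88 ± 1.25 in 8-cell embryos (SD, n = 4 each).

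Of the 5 protein-coding genes on either side of Vim on chromosome 2, 8 were tested, 7 of these were higher by limma (adjusted p under 0.05), as were 37.5% of all tested genes, and St8sia6, next to Vim, did not pass (-0.43, SE 0.30, adjusted p = 0.221). Cubn, for cubilin, an uptake receptor of endoderm, rose to 3243 ± 1427 in blastocysts, against 145 ± 19.4 in 8-cell embryos (4.26, SE 0.25). Its blastocyst signals were 5348, 2898, 2444 and 2283, highest on replicate 1 as for Vim and for 23.1% of all tested genes. Single arrays of the other neighbours are not given. Mrc1, a receptor of macrophages, rose by 0.92 (SE 0.29) and Rsu1, a partner of focal adhesions, by 3.34 (SE 0.16). Cubn, Mrc1 and Rsu1 were picked from the neighbours with their values known.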
